A study of Mus musculus with 24 samples.

Results

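Axon guidance ligands and receptors are described here across the postnatal mouse cochlea, in wild type mice and in mice that lack the α9 subunit of the nicotinic acetylcholine receptor (α9−/−). The genes were chosen by symbol, with earlier results of these data known: ephrins, Eph receptors, semaphorins, plexins, Slits, Robos, netrins, Unc5 receptors, neuropilins and Dcc. With 1 probe set per gene, the brightest over all arrays, this gave 70 genes of the 18194 that a single-symbol probe set named. The symbols Unc50, Unc5cl and Plxna4os1 begin alike but name other genes and were left out, and Ephb2 was not analysed here because no probe set named it alone. The study hybridised 24 expression arrays, 3 for each genotype at postnatal day (P) 3, 7, 13 and 60. The design description gives pools of 3 to 5 mice for each array, with separate biological triplicates per group. The study's methods instead count cochleae, with more per pool at P3 and P7 than at P13 and P60, so the number pooled and age cannot be told apart. All mice were of a 129S6 x CBA/CaJ stock backcrossed to CBA/CaJ for at least 7 generations. The knockout is constitutive, so the receptor subunit was missing from every cell at every age, and no group received a treatment. Whole cochleae were pooled, and the study's methods state that cerebellar fragments, semicircular canals and auditory nerve were removed. Each signal sums all cell types of the sample. Cerebellar and skeletal muscle genes also gave signal on some arrays, as described below, and its source was not tested. In such bulk samples fewer cells of a type and less RNA per cell cannot be told apart.

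Axon guidance works through surface receptors that read attractive or repulsive cues. Ephrins are anchored in the membrane of one cell and are read by Eph receptor tyrosine kinases on another, with EphA receptors preferring ephrin-A ligands and EphB receptors preferring ephrin-B ligands. Semaphorins, either secreted or held in the membrane, signal through plexins, and most secreted class 3 semaphorins need a neuropilin as co-receptor. Slits are secreted ligands of Robo receptors, and netrins act through Dcc and the Unc5 receptors. In the cochlea such cues are known for steering spiral ganglion fibres and for patterning the tissues around them, and efferent fibres are still rearranging their contacts in the first postnatal weeks. All 70 genes were tested, with no filter on low signal, and 5 of them (Epha1, Epha6, Sema6b, Robo3 and Ntn3) stayed below 6.65, the median over all probe sets, on every array. The genes measured were 5 ephrin-A and 3 ephrin-B ligands, 9 EphA and 4 EphB receptors, 7 class 3 and 13 membrane semaphorins, 2 neuropilins, 9 plexins, 3 Slits, 4 Robo receptors, 6 netrins or netrin-G ligands and 5 netrin receptors.

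Genotypes were compared within an age on the deposited log2 signal, and ages were compared on log2 signal quantile-normalized over all 24 arrays, because the median of the deposited values differed between ages (6.73 to 6.89 on the P13 arrays against 6.49 to 6.66 on all others). A gene is called where its Benjamini-Hochberg adjusted p over all 18194 genes, from limma's moderated test, is under 0.05. Where the arrays of a called gene are said not to overlap, this describes the gene and adds no support, since the same arrays gave the call. The targeted gene could not serve as a check of the genotype labels, since the signal of the brightest of 3 Chrna9 probe sets ran from 4.91 to 6.33 in wild type and from 4.99 to 5.94 in α9−/− arrays and was not called at any age. No source used here says whether these probe sets lie in the deleted part. On 5 arrays the 3′ probe set of the Gapdh control exceeded its 5′ probe set by more than 4 log2 units. Of these, 4 were wild type (replicate 1 at P3 and at P60, and replicates 1 and 2 at P13), and 1 was α9−/− (replicate 2 at P3). Calls of named guidance genes that are lost without these arrays are given beside the results. The mean 3′ signal of the poly-A control transcripts reached 8 on all P60 arrays. At P3 it did so on all but wild type replicate 3 and α9−/− replicate 1. At P7 only replicate 2 and at P13 only replicate 1 of each genotype reached it. Presence of that signal and age thus cannot be fully told apart. Coch and Otos, abundant cochlear genes, reached deposited signals above 12 at P13 and P60 in both genotypes, while the cerebellar granule cell gene Gabra6 read at most 4.31 at P3 and between 7.05 and 12.18 at P60. Other cochlear genes read lower at P13 and P60: Tecta 6.71 to 7.64, Myo7a 7.06 to 8.69, Pou4f3 3.87 to 6.64 and Slc26a5 4.25 to 5.45. The cerebellar gene Cbln1 read 7.06 to 8.21 at P3 and 8.01 to 11.68 at P60. Pcp2, another, read 5.07 to 6.90 and 7.18 to 11.49.

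Between P3 and P60 guidance genes fell more often than they rose. In wild type cochleae 20 of the 70 genes fell (28.6%) and 5 rose (7.14%), where 9.5% of all genes tested fell and 12.8% rose. In α9−/− cochleae 19 fell (27.1%) and 4 rose (5.71%), against 13% and 9.49% of all genes. The median difference of the guidance genes was -0.24 in wild type and -0.34 in α9−/−, beside -0.0041 and -0.11 over all genes. The calls overlapped in the 2 genotypes for 14 genes that fell, 20% of the members beside 7.34% of all genes, and for 3 that rose, 4.29% beside 7.78%. Leaving out P3 wild type replicate 2 or replicate 3 lowered the wild type count from 25 to 16, and leaving out P60 wild type replicate 3 lowered the 14 to 9. The 3 dropped to 1 without α9−/− replicate 1 or 3 at P3 or 2 or 3 at P60. Without the 5 arrays of low 5′ signal 14 genes again fell in both genotypes, 10 of them the same, and 4 rose, including all 3. On the arrays with poly-A control transcripts alone, a subset chosen after seeing the data, 6 genes were called in wild type and 7 in α9−/−, with 4 falls and 1 rise in both. For these fits with arrays left out the share of all genes called is not given here. Their counts are therefore not a result about guidance genes.

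**Figure D1:**
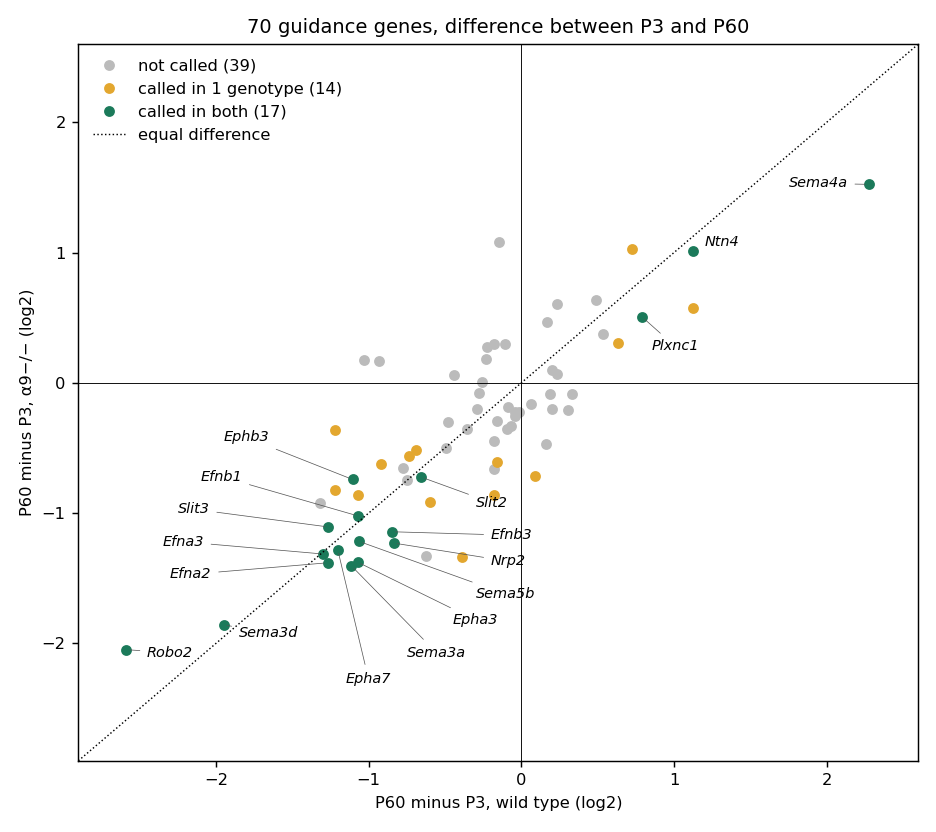
Difference in log2 signal between P3 and P60 for the 70 guidance genes, wild type on the horizontal and α9−/− on the vertical axis (quantile-normalized log2 units), with 1 point per gene. The 17 genes called in both genotypes are named, and the dotted line marks equal differences.

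Calls made in 1 genotype alone were 6 falls and 2 rises in wild type and 5 falls and 1 rise in α9−/−. In wild type these falls ran from 0.69 log2 units for the plexin Plxna3 to 1.22 for the netrin receptor Unc5b, and in α9−/− from 0.61 for the ephrin Efnb2 to 1.34 for the receptor Epha5. A call in 1 genotype alone does not show that the genotypes differed, and the test of that difference is given with the genotype results. These genes were picked as the ends of the ranges. Without the arrays of low 5′ signal 4 of the 6 wild type falls (Sema4d, Plxnd1, Ntn3 and Unc5b) and both wild type rises (Sema3e and Ntng2) were no longer called. The Unc5b difference was then -0.72 (limma adjusted p = 0.084), and that of Efnb2 in α9−/− was -0.50 (adjusted p = 0.06), so that call was lost too.

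The falls were spread over ligands and receptors, and each role's count stands against 9.5% of all genes lower in wild type and 13% in α9−/−. All 3 ephrin-B ligands fell in α9−/− and 2 of 3 in wild type, but without the arrays of low 5′ signal 2 were called in α9−/− and 0 in wild type. Among the EphA receptors 4 of 9 fell in α9−/− and 2 in wild type, and none rose. Slits fell in 2 of 3 cases in each genotype. The 13 membrane semaphorins held calls in both directions, with 3 lower and 1 higher in wild type and 1 lower and 2 higher in α9−/−. Of the 9 plexins 2 fell and 1 rose in wild type, and 1 rose in α9−/−.

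**Figure D2:**
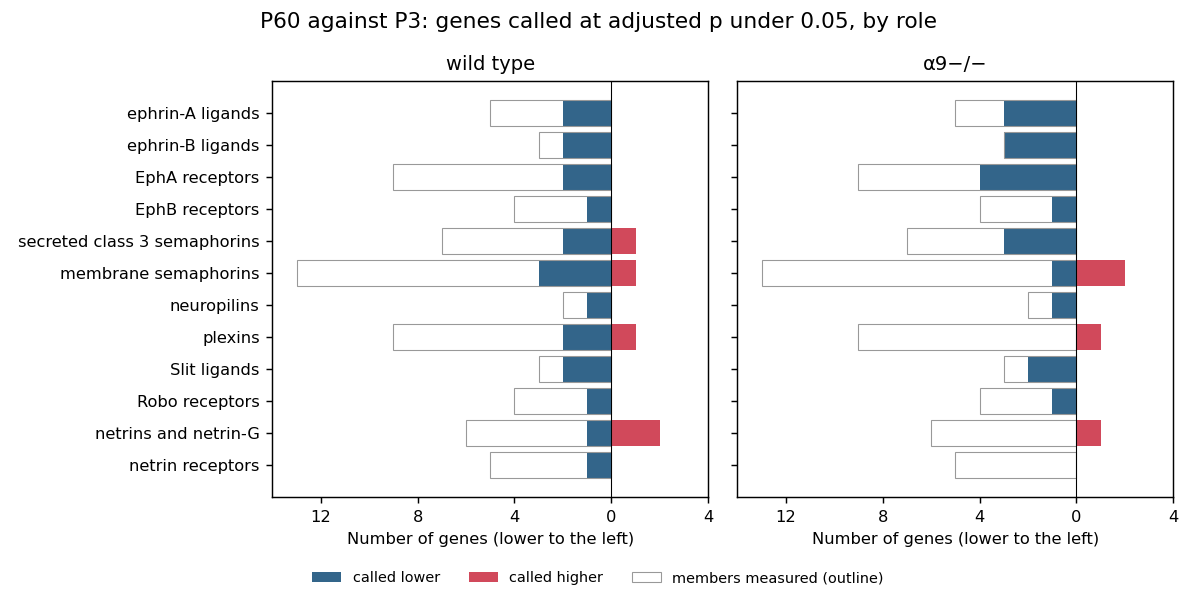
Number of guidance genes called lower (left of 0) or higher (right of 0) at P60 than at P3, by role, in wild type (left panel) and α9−/− (right panel). Outlines show how many genes of each role were measured, and all 3 ephrin-B ligands were called lower in α9−/− with all arrays included.

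Promoter sequences are shown for 4 of the genes that moved together, 3 that fell and 1 that rose, to set the sequences beside the signals. RefSeq windows of 300 bases, 250 before to 50 after the gene start on GRCm38.p6, matched 60 of the 70 genes in 76 windows. Capitals mark the GC box (letters GGGCGG) and the CCAAT box, on either strand, overlapping matches counted separately.
Sema3d (chr5:12382916-12383215, plus strand): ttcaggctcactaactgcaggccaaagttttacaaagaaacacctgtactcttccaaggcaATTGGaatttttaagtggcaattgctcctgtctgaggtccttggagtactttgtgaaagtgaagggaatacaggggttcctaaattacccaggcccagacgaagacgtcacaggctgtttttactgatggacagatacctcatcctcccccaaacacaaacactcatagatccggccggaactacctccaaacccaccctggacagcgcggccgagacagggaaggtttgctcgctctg
Efna2 (chr10:80179232-80179531, plus strand): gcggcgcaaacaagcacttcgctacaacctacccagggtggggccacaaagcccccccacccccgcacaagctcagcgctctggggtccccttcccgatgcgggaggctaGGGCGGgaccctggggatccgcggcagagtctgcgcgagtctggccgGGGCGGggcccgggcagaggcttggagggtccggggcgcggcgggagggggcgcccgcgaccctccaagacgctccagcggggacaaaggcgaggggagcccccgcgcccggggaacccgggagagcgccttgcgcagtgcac
Slit3 (chr11:35121206-35121505, plus strand): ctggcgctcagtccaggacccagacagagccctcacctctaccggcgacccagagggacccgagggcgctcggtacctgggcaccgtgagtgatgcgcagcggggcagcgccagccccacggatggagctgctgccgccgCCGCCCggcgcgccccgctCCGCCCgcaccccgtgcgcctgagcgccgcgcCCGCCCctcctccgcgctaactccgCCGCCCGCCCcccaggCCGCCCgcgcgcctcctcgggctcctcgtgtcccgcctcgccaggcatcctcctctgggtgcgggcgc
Ntn4 (chr10:93640799-93641098, plus strand): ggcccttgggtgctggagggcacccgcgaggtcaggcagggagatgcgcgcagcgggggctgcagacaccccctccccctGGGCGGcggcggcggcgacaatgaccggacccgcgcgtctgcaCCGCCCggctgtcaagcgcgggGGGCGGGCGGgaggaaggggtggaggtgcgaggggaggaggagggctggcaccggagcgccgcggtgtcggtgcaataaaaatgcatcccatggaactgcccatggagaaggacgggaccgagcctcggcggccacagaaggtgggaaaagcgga
Sema3d had no GC box and 1 CCAAT box, while Efna2 held 2 GC boxes, Slit3 6 and Ntn4 4. Over the guidance genes 71.1% of windows held a GC box, beside 35.7% of all 32851 windows, and 2.63% held a TATA box (letters TATAAA), beside 13.6%. A CCAAT box was in 27.6% beside 37.4%, and an E-box (letters CACGTG) in 6.58% beside 7.15%. For the 14 genes that fell in both genotypes, 13 matched, and 9 of their 17 windows (52.9%) held a GC box. These matches describe letters in the windows, and binding was not measured.

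Among the ligands, Sema3d, a secreted class 3 semaphorin, showed the largest fall. Its quantile-normalized signal in wild type was 11.03, 11.41 and 11.10 at P3 and 9.86, 8.99 and 8.83 at P60. In α9−/− it was 11.82, 11.23 and 10.62 at P3 and 9.39, 9.71 and 8.99 at P60. The fall was 3.86-fold in wild type (log2 -1.95, SE 0.28, limma adjusted p = 3.2e-05) and 3.62-fold in α9−/− (log2 -1.86, SE 0.28, adjusted p = 6.6e-05). All P60 arrays lay below all P3 arrays, and the other Sema3d probe set had the same sign in both genotypes. Sema3a, a repellent of the same class that acts through neuropilin and A-type plexins, fell by 1.11 (SE 0.30) in wild type and 1.40 (SE 0.30) in α9−/− on the log2 scale, with adjusted p of 0.0091 and 0.0016. The wild type call for Sema3a was lost without P60 wild type replicate 3, and of its 2 other probe sets 1 had the opposite sign in α9−/−.

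The ephrin-A ligands Efna2 and Efna3, which are tethered to the membrane by a lipid anchor, fell together. Efna2 read 8.77, 8.38 and 8.47 at P3 and 7.72, 6.95 and 7.15 at P60 in wild type, and 8.68, 8.55 and 8.11 and 7.19, 7.34 and 6.66 in α9−/−. Efna3 read 7.17, 6.98 and 6.99 and 5.66, 5.74 and 5.84 in wild type, and 7.08, 7.23 and 6.93 and 6.05, 6.04 and 5.22 in α9−/−. No P60 array reached the level of any P3 array for either gene. The falls of Efna2 were log2 -1.27 and -1.38 (SE 0.23, adjusted p = 0.00034 and 0.00016) and those of Efna3 -1.30 and -1.31 (SE 0.21, adjusted p = 9.8e-05 and 0.0001), wild type first. Both genes were also called lower from P7 to P13 in both genotypes. They kept their P3 to P60 calls in both genotypes whichever of the 12 arrays was left out.

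Among the transmembrane ephrin-B ligands, Efnb1 fell by 1.07 in wild type and 1.02 in α9−/− (SE 0.27, adjusted p = 0.0061 and 0.0091), and Efnb3 fell by 0.85 and 1.14 (SE 0.26, adjusted p = 0.023 and 0.0032). Efnb1 lost its α9−/− call without P60 α9−/− replicate 1 and Efnb3 its wild type call without replicate 3 of P3 or P60 wild type, and neither gene was called in both genotypes without the 5 arrays of low 5′ signal. Sema5b, a membrane semaphorin with thrombospondin repeats, read 6.88, 6.49 and 6.91 at P3 and 5.56, 5.77 and 5.78 at P60 in wild type. In α9−/− it read 6.35, 6.96 and 6.78 and 5.57, 5.74 and 5.13. It was lower on every P60 array than on every P3 array of the same genotype, by 1.06 and 1.22 log2 units (SE 0.19, adjusted p = 0.00039 and 0.00011).

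Slit3 and Slit2, secreted ligands of Robo receptors, also fell. Slit3 read 9.68, 8.83 and 8.74 at P3 and 7.22, 7.83 and 8.41 at P60 in wild type, and 8.64, 9.22 and 8.62 and 7.33, 7.36 and 8.46 in α9−/−. The groups did not overlap and the falls were 1.26 and 1.11 (SE 0.34, adjusted p = 0.0086 and 0.021). The wild type call was lost without P3 or P60 wild type replicate 1 and the α9−/− call without P3 α9−/− replicate 2 or P60 α9−/− replicates 1 or 2, and without the arrays of low 5′ signal the differences were -0.67 and -0.91 and neither was called (adjusted p = 0.21 and 0.057). Slit2 fell by 0.65 and 0.72 (SE 0.18, adjusted p = 0.011 and 0.0058), and its call in both genotypes was lost without P60 wild type replicate 3. Both of its other probe sets had the same sign in both genotypes.

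Among the receptors, Robo2, which binds Slits, was lower at P60 in both genotypes. It read 7.18, 7.58 and 6.58 at P3 and 3.31, 4.77 and 5.52 at P60 in wild type. In α9−/− it read 7.51, 6.96 and 7.12 at P3 and 4.78, 5.46 and 5.21 at P60. The groups did not overlap, and the log2 differences were -2.59 in wild type (SE 0.48, adjusted p = 0.00041) and -2.05 in α9−/− (SE 0.48, adjusted p = 0.0034). The P60 signals lie below 6.65, the median over all probe sets, and the values used here carry no detection call, so the size of the fall is uncertain. Robo2 had 1 probe set. The lowest wild type value at P60 was that of replicate 1, an array of low 5′ signal, and without the arrays of low 5′ signal Robo2 fell by 1.94 in wild type and fell by 2.17 in α9−/−. Robo2, Efna2, Efna3, Sema3d and Sema5b were the 5 falling genes whose calls in both genotypes were kept whichever array was left out. The P60 signals of Efna3 and Sema5b also lay below 6.65, so the sizes of their falls are uncertain too. The other Robo receptors were not called.

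The Eph receptors Epha7 and Epha3 fell in both genotypes. Epha7 read 10.41, 10.62 and 10.75 at P3 and 10.08, 9.56 and 8.53 at P60 in wild type, and 10.44, 10.42 and 10.04 and 9.37, 9.65 and 8.03 in α9−/−. Its arrays at P60 spread over more than 1 log2 unit, and the falls of 1.20 and 1.28 (SE 0.41, adjusted p = 0.04 and 0.029) were called in both genotypes in 4 of the 12 fits that left out an array. The α9−/− call was also lost without the arrays of low 5′ signal (-1.22, adjusted p = 0.077). Among fits leaving out a wild type array of P3 or P60, only that without P60 replicate 1 kept the wild type call. The α9−/− call was lost without P3 α9−/− replicates 1 or 2 or P60 α9−/− replicate 3. Epha3, which the study names, read 8.59, 8.82 and 8.68 at P3 and 8.52, 7.12 and 7.23 at P60 in wild type. It read 8.85, 8.91 and 8.86 and 7.59, 7.85 and 7.05 in α9−/−. Its P60 values lay below all P3 values, though wild type replicate 1 came close to them. The falls were 1.07 and 1.38 (SE 0.29, adjusted p = 0.01 and 0.0016), and the wild type call was lost without P60 wild type replicates 2 or 3. All 3 other Epha3 probe sets and all 3 other Epha7 probe sets had the same sign in both genotypes. The receptor Ephb3 fell by 1.10 and 0.74 (SE 0.24, adjusted p = 0.0021 and 0.032), with overlapping arrays in α9−/−, where its call was lost without replicates 1 or 3 at P3 or 1 or 2 at P60. The co-receptor Nrp2 fell by 0.84 and 1.23 (SE 0.23, adjusted p = 0.012 and 0.00057), and its call in both genotypes was lost without wild type replicate 2 of P3 or of P60. Its 3 other probe sets had the same sign.

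The genes higher at P60 numbered 3 in both genotypes. Sema4a, a membrane semaphorin also known from immune cells, read 6.52, 5.87 and 5.86 at P3 and 8.43, 8.22 and 8.42 at P60 in wild type. In α9−/− it read 6.44, 6.89 and 6.05 and 8.18, 8.31 and 7.46. All P60 arrays were above all P3 arrays, by 4.84-fold in wild type (log2 2.27, SE 0.24, adjusted p = 8.5e-07) and 2.87-fold in α9−/− (log2 1.52, SE 0.24, adjusted p = 0.00011). Both calls held in every fit that left out an array. Its P3 signals, apart from α9−/− replicate 2, lay below 6.65, the median over all probe sets, so the size of the rise is uncertain. Ntn4 read 9.87, 8.89 and 8.79 at P3 and 10.79, 9.82 and 10.32 at P60 in wild type, where the groups overlapped. This laminin-related netrin of basement membranes rose by 1.12 and 1.01 (SE 0.36, adjusted p = 0.028 and 0.048), but kept both calls in 3 of the 12 fits. The wild type call was lost without P3 wild type replicates 2 or 3 or P60 wild type replicates 1 or 3. Among fits leaving out an α9−/− array of P3 or P60, only that without P3 replicate 2 kept the α9−/− call. Plxnc1, a plexin that reads Sema7a, rose by 0.79 and 0.51 (SE 0.16, adjusted p = 0.00077 and 0.023). Its α9−/− call was lost without P3 α9−/− replicates 1 or 3 or P60 α9−/− replicates 2 or 3, and of its 5 other probe sets 2 had the opposite sign in wild type and 1 in α9−/−.

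**Figure D3:**
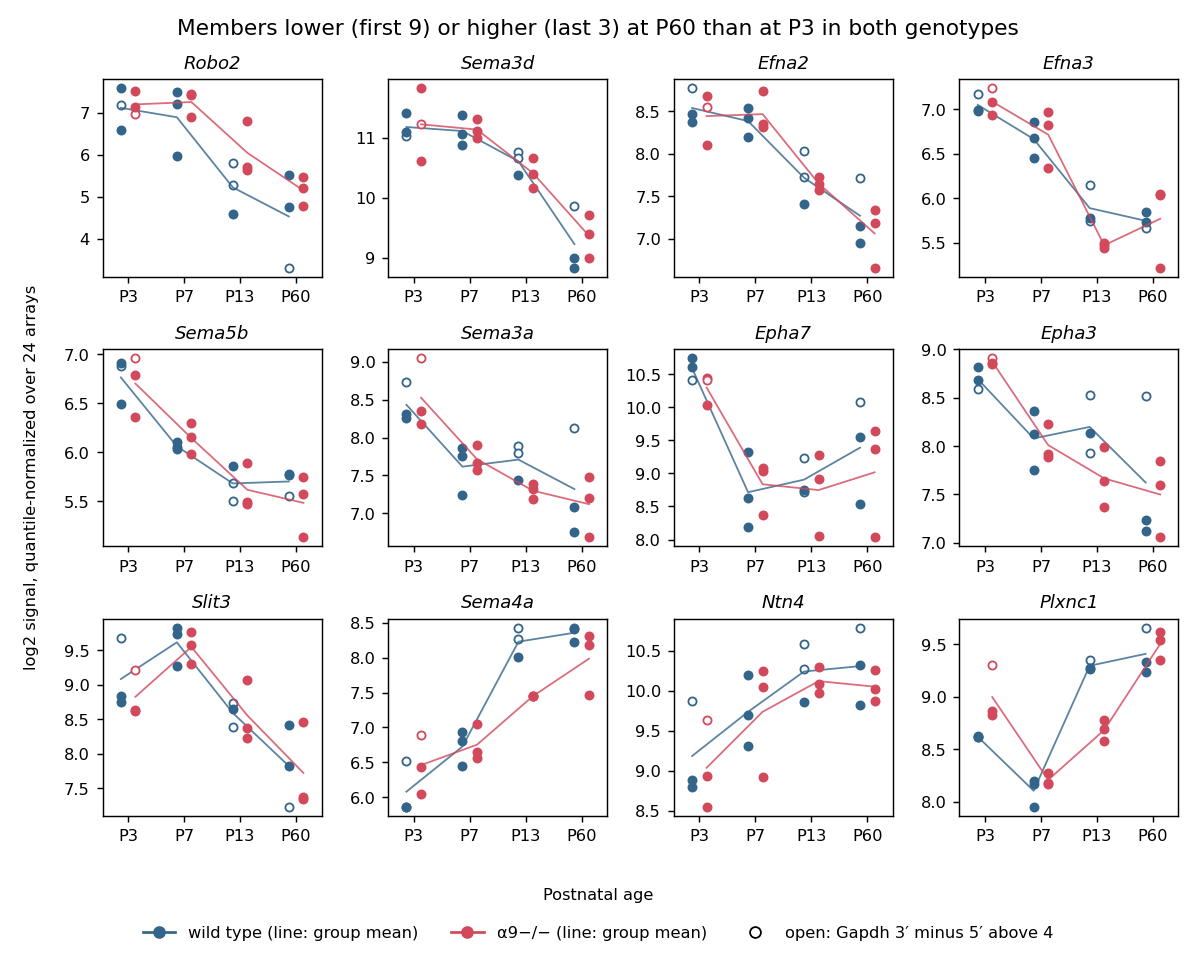
Quantile-normalized log2 signal of 12 named guidance genes on every array at P3, P7, P13 and P60, wild type in blue and α9−/− in red, with lines through the group means and open points for the 5 arrays of low 5′ Gapdh signal. The vertical scale differs between panels, and at P60 Sema4a, Ntn4 and Plxnc1 stood above and the other 9 genes below their P3 means.

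Tissue markers moved over the same interval, and their part in the guidance gene results was not tested. Cartilage markers fell (7 of 12 in wild type, 9 of 12 in α9−/−), their mean signal per array passing from between 10.12 and 11.68 at P3 to between 7.70 and 8.13 at P60, and 6 and 5 of 9 bone markers fell. Neutrophil markers rose (10 of 11 in each genotype, from 7.39 to 8.54 at P3 to 11.08 to 11.55 at P60). Cerebellum and hindbrain markers rose too, 7 of 15 in wild type and 11 of 15 in α9−/−, from 6.08 to 6.64 at P3 to 6.95 to 10.11 at P60. Spiral ganglion neuron markers rose in 7 and 8 of 16 cases, B cell markers in 5 of 7 in each genotype and oligodendrocyte markers in 4 and 5 of 8.

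The steps between P3 and P60 differed in size. From P3 to P7, 3 genes fell and none rose in wild type, where 1.19% of all genes fell and 1.14% rose, and 6 fell and 2 rose in α9−/−, where 1.82% fell and 0.973% rose. The wild type count dropped to 1 without P3 wild type replicate 2 or 3 or P7 wild type replicate 3 and to 0 without P7 wild type replicate 2, and fits without P3 α9−/− replicates 2 or 3 or any P7 α9−/− array gave 3 to 5 in place of 8 in α9−/−. Without the arrays of low 5′ signal 8 genes were called in wild type and 7 in α9−/−. Calls over all genes then went from 424 to 754 in wild type and from 509 to 479 in α9−/−. The third wild type gene was Epha7 (-1.88, limma adjusted p = 0.015). Both genotypes called Sema4f and Ntng1 lower (2.86% of members, beside 0.824% of all genes lower in both), and no member rose in both (0%, beside 0.72%). Sema4f, a membrane semaphorin, read 8.66, 7.50 and 7.56 at P3 and 6.46, 5.92 and 6.25 at P7 in wild type, and 7.86, 8.28 and 8.04 and 6.69, 5.86 and 6.54 in α9−/−. By P60 it read 8.16, 7.53 and 8.52 in wild type and 8.63, 8.68 and 8.25 in α9−/−. In both genotypes the mean was lowest at P7, and the falls from P3 were 1.69 and 1.69 (SE 0.34, adjusted p = 0.0076 and 0.0088), the wild type one not called without P7 wild type replicate 2. Ntng1, a netrin-G anchored in the membrane of axons, fell by 1.24 and 1.28 (SE 0.30, adjusted p = 0.028 and 0.02). Its wild type call was lost without P3 or P7 wild type replicates 2 or 3 and its α9−/− call without P3 α9−/− replicate 2 or P7 α9−/− replicates 1 or 2. Without the arrays of low 5′ signal the α9−/− difference of Ntng1 was not called (-1.12, adjusted p = 0.095).

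From P7 to P13, the span of hearing onset, 17 genes fell and 3 rose in wild type (24.3% and 4.29%), where 6.49% of all genes fell and 13.4% rose. In α9−/− 3 fell and none rose (4.29% and 0%), against 2.23% and 4.01% of all genes. Of the 20 wild type calls 10 were lost without the arrays of low 5′ signal, which were 2 of the 3 wild type arrays at P13, while the α9−/− calls rose from 3 to 11. Over all genes the wild type calls fell too without the arrays of low 5′ signal, where 1 wild type array at P13 remained. The α9−/− calls over all genes rose from 1136 to 1959. Leaving out P7 wild type replicate 3 gave 11 and P13 wild type replicate 2 gave 9 wild type calls, and single α9−/− arrays moved the 3 to between 1 and 5. Of the 17 falling genes 5 were plexins, receptors of semaphorins, named here after their values were seen: Plxna1, Plxna4, Plxnb1, Plxnb2 and Plxnd1. Plxna4 and Plxnb2 were still called without the arrays of low 5′ signal, and Plxna1, Plxnb1 and Plxnd1 were not (limma adjusted p = 0.083, 0.083 and 0.14). Efna3 and Efna2 were called lower in both genotypes (2.86%, beside 1.39% of all genes), and no member was called higher in both (0%, beside 3.58%). Efna3 fell by 0.77 and 1.24 (SE 0.21, adjusted p = 0.012 and 0.00076) and Efna2 by 0.67 and 0.82 (SE 0.23, adjusted p = 0.045 and 0.036). The Efna2 call in α9−/− was lost on leaving out any 1 of its 6 arrays and that in wild type without P7 wild type replicates 1, 2 or 3 or P13 replicates 2 or 3, and the Efna3 call in wild type was lost without P7 wild type replicate 2 or P13 replicate 2. The Efna3 call in wild type was also lost without the arrays of low 5′ signal (-0.89, limma adjusted p = 0.084), where 4 genes were lower in both genotypes.

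From P13 to P60, 5 genes fell and 4 rose in wild type (7.14% and 5.71%), where 10.7% of all genes fell and 6.91% rose, and 6 fell and 4 rose in α9−/− (8.57% and 5.71%), where 6.38% fell and 6.41% rose. The wild type count went from 9 to 5 without P13 wild type replicate 3 and to 16 without P60 wild type replicate 1, and the α9−/− count from 10 to 4 without P13 α9−/− replicate 1 and to 5 without P60 α9−/− replicate 2. Ntn1 rose in both genotypes (1.43%, beside 3.44%), and Sema3d, Slit2, Sema4d, Unc5b and Nrp2 fell in both (7.14%, beside 5.29%), a count of 5 that dropped to 1 without P13 α9−/− replicate 1 and to 2 without P60 wild type replicate 2 or P60 α9−/− replicate 2. Without the arrays of low 5′ signal 2 of the 5, Sema3d and Slit2, were called in both genotypes. The wild type differences were then -1.11 for Sema4d, -0.54 for Unc5b and -0.79 for Nrp2 (limma adjusted p = 0.055, 0.36 and 0.092). Ntn1, a secreted netrin that attracts or repels by its receptor, read 8.44, 8.21 and 8.37 at P13 and 8.90, 9.44 and 9.94 at P60 in wild type. It read 8.81, 8.35 and 8.48 and 9.94, 9.68 and 9.79 in α9−/−, and all P60 arrays exceeded all P13 arrays, by 1.09 and 1.26 (SE 0.23, adjusted p = 0.0027 and 0.001). Sema3d fell by 1.38 and 1.04 (SE 0.28, adjusted p = 0.0019 and 0.017), its α9−/− call being lost without P13 α9−/− replicate 1 or P60 α9−/− replicate 3. Slit2 read 11.85, 11.74 and 11.66 at P13 and 11.00, 10.61 and 10.43 at P60 in wild type and fell by 1.07 (SE 0.18, adjusted p = 0.0003). In α9−/− it read 11.83, 11.62 and 11.76 and 10.47, 10.89 and 10.53 and fell by 1.11 (adjusted p = 0.0003). The membrane semaphorin Sema4d fell by 0.85 and 1.11, the netrin receptor Unc5b by 0.88 and 0.86 and Nrp2 by 0.80 and 0.80 (adjusted p between 0.0084 and 0.048). The Sema4d calls were lost without P13 wild type replicates 2 or 3, P60 wild type replicates 1 or 2, P13 α9−/− replicate 1 or P60 α9−/− replicate 2. Those of Unc5b were lost without P13 wild type replicates 1 or 3, P60 wild type replicates 1 or 2, P13 α9−/− replicates 1 or 2 or P60 α9−/− replicates 1 or 2. Those of Nrp2 were lost without P13 wild type replicates 1 or 2, P60 wild type replicates 2 or 3, P13 α9−/− replicate 1 or P60 α9−/− replicates 1 or 2. Over all called steps and genotype differences, another probe set had the opposite sign for Plxnc1, Sema4b, Sema4d, Plxna4, Sema5a, Ntn1, Nrp2, Sema3e, Ntng2, Sema3a, Epha4 and Efnb2, and 0 of these opposite differences were called.

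The peak age was compared across all 70 genes as a description without a test. The means include the 5 arrays of low 5′ signal, none of which was at P7. Their part in the peak ages was not tested. In both genotypes the mean was highest at P3 for 18 genes (25.7%, beside 11.4% of all genes), at P7 for 23 (32.9%, beside 16.3%), at P13 for 3 (4.29%, beside 11.6%) and at P60 for 9 (12.9%, beside 18.6%), and for 17 genes (24.3%, beside 42.1%) the peak age differed between genotypes. By peaks shared by both genotypes, 5 of the 9 EphA receptors peaked at P3, 1 at P13 and none at P7 or P60. For the other 3 the peak age differed between genotypes. The counts that follow are also of shared peaks. Plexins peaked at P7 in 5 of 9 cases, as did membrane semaphorins in 5 of 13. Netrins and netrin-G ligands peaked at P60 in 3 of 6 cases.

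**Figure D4:**
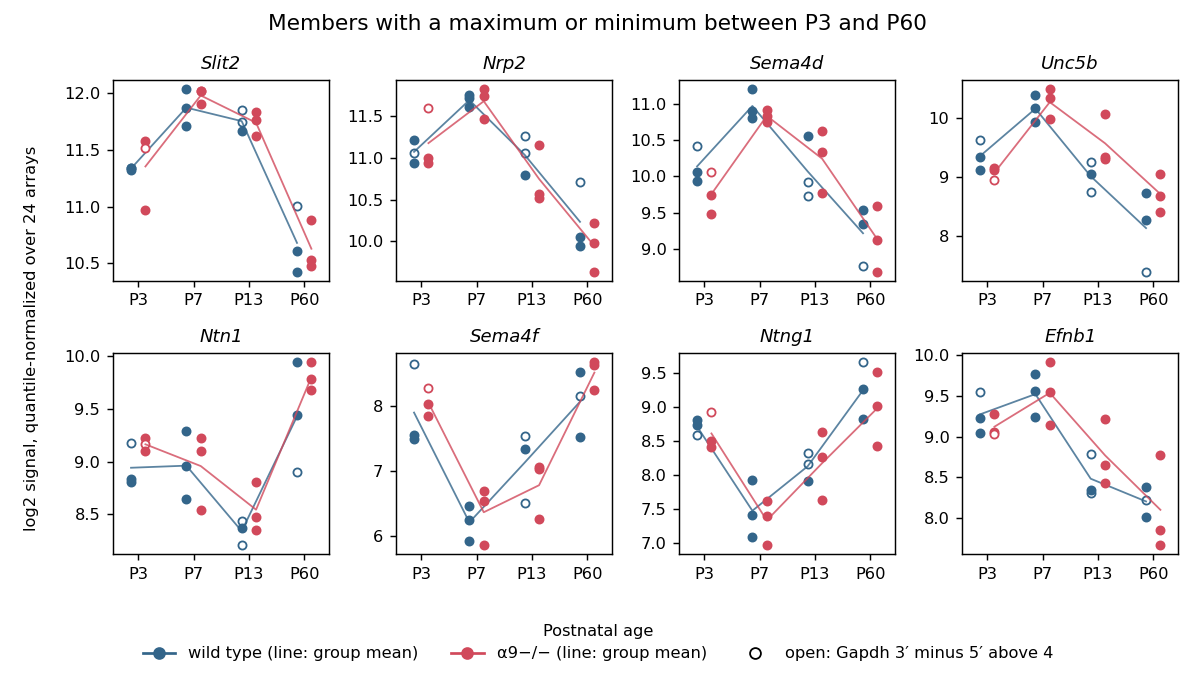
Quantile-normalized log2 signal of 8 guidance genes on every array by age, wild type in blue and α9−/− in red, with lines through the group means and open points for arrays of low 5′ Gapdh signal. Slit2, Nrp2, Sema4d, Unc5b and Efnb1 were highest at P7, Ntn1 was lowest at P13, and Sema4f and Ntng1 dipped at P7.

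Between genotypes at the same age few guidance genes differed. No gene was called at P3, P7 or P60, where 0.0165%, 0% and 0% of all genes were called. At an unadjusted p under 0.05 there were 2, 0 and 0 genes of the 70. The share of all genes under that limit is not given here, so these counts are not a result about guidance genes. At P13, 4 genes were called higher in α9−/− (5.71%, beside 1.09% of all genes) and 1 was called lower (1.43%, beside 2.92%). The median difference over all genes at P13 was -0.22 and that of the guidance genes -0.02, and the values below are not corrected for that shift. At this age the Gapdh 3′ minus 5′ difference averaged 5.07 in wild type and 0.01 in α9−/− arrays (two-sided p = 0.1 by exact permutation, which is as small as 3 arrays a group can give), and its part in the calls was not tested beyond the fits without these arrays. Gabra6 ran from 3.75 to 9.41 in wild type and from 4.09 to 7.27 in α9−/− arrays at P13. Skeletal muscle markers averaged 7.62 to 10.55 on the wild type and 7.65 to 7.78 on the α9−/− arrays, with 1 of 12 called lower, and neutrophil markers 12.11 to 12.56 and 11.53 to 11.98, with 2 of 11 called lower. B cell markers averaged 9.27 to 10.20 on the wild type and 8.89 to 9.26 on the α9−/− arrays, and keratinocyte markers 5.42 to 5.96 and 5.27 to 5.39, with none called. Neutrophil, B cell and keratinocyte means thus did not overlap between genotypes (two-sided exact permutation p = 0.1 for each). Cartilage markers were called higher in 2 of 12 cases, cochlear markers in 2 of 23 and spiral ganglion neuron markers in 1 of 16. The part of these markers in the calls was not tested. All 5 calls were lost when P13 wild type replicate 1 or 2, or any α9−/− replicate, was left out, and when the 2 wild type arrays of low 5′ signal were left out together. With those 2 left out, 1 wild type array remained and its spread was taken from the others, and the 5 differences kept their sign. The Gapdh 3′ minus 5′ difference of that array, replicate 3, was 2.43, beside -0.15 to 0.34 on the α9−/− arrays. Among fits that left out 1 P13 array, calls remained only without wild type replicate 3. That fit kept both wild type arrays of low 5′ signal. When arrays with and without poly-A spike-in signal were fitted as separate blocks 13 genes were called, 10 higher and 3 lower, and on the arrays without that signal 0 were called. The share of all genes called in these fits is not given here, so the counts are not a result about guidance genes.

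Sema5a, a membrane semaphorin, had the largest difference. Its deposited signal at P13 was 8.31, 8.55 and 8.42 in wild type and 10.28, 10.29 and 11.07 in α9−/−, a 4.35-fold difference (log2 2.12, SE 0.24, adjusted p = 0.026). Of its other probe sets 1 differed by -0.01 and 2 by 1.27 and 0.50. Without the low 5′ arrays, with 1 wild type array left, the difference was 2.13. Efna4, an ephrin-A ligand, was 6.26, 5.67 and 5.99 in wild type and 6.90, 6.78 and 6.86 in α9−/− (log2 0.87, SE 0.19, adjusted p = 0.049). Its signal was also low on the 2 P3 arrays of low 5′ signal, at 5.57, 7.69 and 7.77 in wild type and 7.61, 5.54 and 7.42 in α9−/− on the quantile-normalized scale, where wild type replicate 1 and α9−/− replicate 2 were the arrays concerned. Sema4c, a membrane semaphorin, was 7.86, 7.92 and 7.77 in wild type and 8.64, 8.43 and 8.86 in α9−/− (log2 0.79, adjusted p = 0.048), and the receptor Ephb4 was 7.68, 7.36 and 7.52 and 8.32, 8.25 and 8.27 (log2 0.76, adjusted p = 0.046). Sema4a was lower in α9−/−, at 7.63, 7.70 and 7.67 beside 8.51, 8.46 and 8.28 in wild type (log2 -0.75, adjusted p = 0.045). For all 5 genes the groups did not overlap, as the plot of the P13 arrays shows. The genes were chosen by their test on these same arrays, so this adds no support to the calls.

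**Figure D5:**
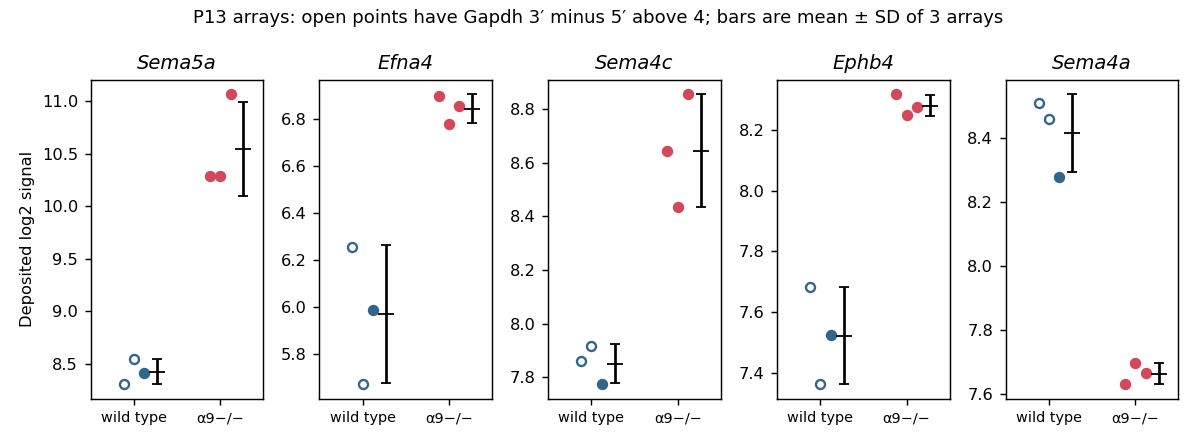
Deposited log2 signal at P13 of the 5 guidance genes called between genotypes, with a point for each array (open for the 2 wild type arrays of low 5′ Gapdh signal) and bars for the mean and SD of 3 arrays. Wild type and α9−/− arrays do not overlap in any panel, for genes chosen by their test on these same arrays.

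At P3 the gene of lowest p was Sema5a, lower in α9−/− by 0.82 (SE 0.22, limma adjusted p = 1), followed by Sema3c (0.63, SE 0.26, adjusted p = 1) and Epha5 (0.65, SE 0.30, adjusted p = 1). For Sema5a this direction is opposite to that at P13. At P7 they were Slit1 (-0.33, SE 0.17), Robo3 (-0.56, SE 0.37) and Plxna4 (-0.30, SE 0.22), all with an adjusted p that rounds to 1. At P60 they were Sema4b (-0.54, SE 0.25), Robo3 (0.72, SE 0.38) and Ntng2 (-0.40, SE 0.22), each with a limma adjusted p of 0.94. Epha3 differed between genotypes by 0.16 at P3, -0.06 at P7, -0.51 at P13 and -0.11 at P60 (SE 0.20, 0.19, 0.25 and 0.38), none called, and the P60 difference was positive, at 0.29, without P60 wild type replicate 1. These values come from the brightest of 4 Epha3 probe sets. The study lists Epha3 as higher in α9−/− at P3 by a different probe set. It also reports higher Epha3 at P60 by quantitative PCR.

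Whether the change with age differed between genotypes was tested directly, and no guidance gene was called in any of the 4 steps (0 of 70, beside 0% of all genes from P3 to P7, 0.0055% from P7 to P13, 0% from P13 to P60 and 0% from P3 to P60). At an unadjusted p under 0.05 there were 0, 4, 3 and 5 genes in these steps. The share of all genes under that limit is not given here, so these counts are not a result about guidance genes. Sema5a changed from P7 to P13 by -2.06 in wild type and 0.14 in α9−/−, a difference of 2.20 (SE 0.60, limma adjusted p = 0.58). The interaction for Plxnc1 was -0.72 from P7 to P13 and 0.71 from P13 to P60 (SE 0.22, adjusted p = 0.65 and 1).

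Over all genes 12.8% rose and 9.5% fell from P3 to P60 in wild type and 9.49% rose and 13% fell in α9−/−, and the related lists are read against these shares. Of 35 other guidance cues and receptors 5 rose and 5 fell from P3 to P60 in wild type, and 5 rose and 6 fell in α9−/−. Draxin, a secreted repellent, fell by 1.24 in wild type and 1.34 in α9−/− (SE 0.30, limma adjusted p = 0.0046 and 0.0026), and Kdr, the VEGF receptor of endothelium, by 0.82 and 1.08 (SE 0.25, adjusted p = 0.022 and 0.0036). Cxcr4, a chemokine receptor, was higher by 1.58 and 1.79 (SE 0.32, adjusted p = 0.0011 and 0.00039), and Cd72, a B cell surface protein that binds Sema4d, by 2.27 and 1.52 (SE 0.31, adjusted p = 1.8e-05 and 0.0013). Among 57 measured genes of intracellular guidance signalling 6 rose and 7 fell in wild type, and 7 rose and 11 fell in α9−/−. Chn2, a Rac GTPase-activating protein, was higher by 1.85 and 2.65 (SE 0.57, adjusted p = 0.023 and 0.0019), Rasgrf1, a Ras exchange factor, by 1.73 and 2.11 (SE 0.34, adjusted p = 0.00083 and 0.00014), and Ablim3, an actin-binding protein, by 1.60 and 1.20 (SE 0.32, adjusted p = 0.00086 and 0.0092). Farp2, a guanine nucleotide exchange factor of plexin signalling, was lower by 1.29 and 1.56 (SE 0.38, adjusted p = 0.018 and 0.0056).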

How the data were processed

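RNA of pooled cochleae was hybridised to Affymetrix mouse whole-genome expression arrays, and the authors processed the arrays in AffyPLM (RMA background correction, quantile normalization, Tukey biweight summary) before they deposited log2 signal for 45101 probe sets. The labels place each array in its genotype and age. Of the probe sets 34958 carried 1 gene symbol and 10143 several or none, and the brightest by mean log2 over 24 arrays stood for each of 18194 genes. The genotypes were compared within each age with limma 3.58.1 in R 4.3.3 on the deposited values of 6 arrays. Age steps and their difference between genotypes (α9−/− change minus wild type change) came from 1 limma fit of 8 group means after quantile normalization over all arrays, with Benjamini-Hochberg adjustment over all genes. The scripts were tested on simulated data. The members, the gene lists and the tests were chosen with earlier results of these data known. Genes named with values were those of largest mean difference called the same way in both genotypes (up to 10 each way for P3 to P60, 5 for the next steps, 3 for P3 to P7), called genotype differences or else the 3 of lowest p, Epha3, members whose probe sets disagreed, and up to 4 of each related list. Alternatives changed the normalization, the gene filter, the probe set rule, the weights, the block, the fold limit and the arrays included. The number of arrays limits the precision.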

Additional observations from a re-analysis of the deposited data

How the results depend on the processing

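Called named differences kept their direction, and uncalled ones of Epha3 and Robo3 did not. Epha3 at P60 turned to 0.37 with array weights, to 0.29 without the arrays of low 5′ signal or without wild type replicate 1, and to 0.09 without α9−/− replicate 3. Over all arrays left out it ran from -0.34 to 0.29. At P7 Epha3 turned to 0.0061 without wild type replicate 1 and 0.039 without replicate 2, running down to -0.22 without replicate 3, and Robo3, at -0.56 with all arrays, to 0.00474 on arrays without poly-A controls. The poly-A subsets were chosen after seeing the data. The cause was not tested for any of the changes given here.

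The 5 genotype calls at P13 became 3 with quantile normalization over all arrays, 1 with all arrays in 1 fit, 3 among the most variable 40% of probe sets, 25 with array weights, 13 with a poly-A block, 1 at a log2 difference of 1.5 or more, and 0 without the arrays of low 5′ signal or on arrays without poly-A controls. The replicate numbers did not pair the samples (7 of 12 pairs correlated above 0.1, from -0.39 to 0.62, and 4 pairs were best matched by their own number). A replicate block left 1 call at P13, and other counts stayed within 1.5 times. Counts in this section are of guidance genes alone, without the shares over all genes.

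Array weights gave 30, 43 and 37 calls in wild type and 17, 32 and 28 in α9−/− for the steps P3 to P7, P7 to P13 and P13 to P60. They also gave 22 falls and 5 rises in both genotypes from P3 to P60, and 5 and 27 interactions from P7 to P13 and from P13 to P60. A log2 difference of 1.5 or more left 7 calls from P7 to P13, 0 from P13 to P60 and 3 from P3 to P60 in wild type, 2, 0, 1 and 3 over the steps in α9−/−, and 2 falls and 1 rise in both genotypes from P3 to P60. The most variable 40% gave 5 calls from P13 to P60 in wild type, 4, 6 and 14 from P3 to P7, P13 to P60 and P3 to P60 in α9−/−, and 1 rise in both. On the deposited scale there were 17 calls from P13 to P60 in wild type and 5 from P7 to P13 in α9−/−. Testing all probe sets gave 5 from P3 to P7 in α9−/−, and centring arrays on their median left 1 rise in both. Without the arrays of low 5′ signal there were 8 calls from P3 to P7 and 10 from P7 to P13 in wild type and 11 from P7 to P13 in α9−/−. Arrays with poly-A controls alone gave 6 and 7 calls from P3 to P60 in wild type and α9−/−, with 4 falls and 1 rise in both.

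Leaving out each array in turn gave 0 to 7 genotype calls at P13 and 0 at other ages. The step counts ran from 0 to 3, 9 to 18, 5 to 16 and 16 to 22 in wild type and from 3 to 8, 1 to 5, 4 to 13 and 16 to 20 in α9−/−, with 9 to 15 falls and 1 to 4 rises in both genotypes from P3 to P60 and 0 interactions. The rises in both dropped from 3 to 1 without α9−/− replicates 1 or 3 at P3 or 2 or 3 at P60.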
